A study of Homo sapiens with 20 samples.

Results

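The iron handling genes of the intestinal epithelium were followed in Caco-2 cells exposed to 3 probiotic bacteria, to their culture supernatants or to a supernatant of pathogenic Escherichia coli. They were chosen by symbol: TFRC, SLC40A1, SLC11A2, CYBRD1, HEPH, FTH1, FTL, STEAP3 and IREB2, 9 genes in all. Of these, 7 had a probe set under that symbol in the platform annotation used, out of 19775 named genes, with 20 of the 54675 probe sets of the array. FTH1, the heavy chain of ferritin, and IREB2, which encodes the iron sensor IRP2, were not analysed here. CYBRD1 lay close to the floor of the array in every group, so that the text rests mainly on 6 genes.

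Caco-2, an established line from a human colon carcinoma, resembles absorptive cells of the small intestine once differentiated. Cells of passages p47 to p51 were differentiated on inserts with a 5-day protocol and received the bacteria or supernatants on the apical side. In the probiotic set of 14 arrays there were 7 groups of 2 arrays. One had medium alone for 8 h; the others had Lactobacillus acidophilus NCFM, B. lactis 420 (Bifidobacterium) or L. salivarius Ls-33, either as live bacteria (20 to 100 for each epithelial cell, 8 h) or as cell-free supernatant at 10% (v/v) for 24 h. In the E. coli set of 6 arrays, 2 groups of 3 arrays were kept for 24 h, the control in medium and the other with 5% (v/v) supernatant, free of bacteria, from E. coli O157:H7 (EHEC). RNA input was 5 µg for probiotic arrays and 1 µg for E. coli arrays. Both are models of 1 cell line, and a group given bacterial broth alone was not analysed here. The probiotic supernatants were compared with an 8 h medium, so that duration and supernatant cannot be told apart. The series describes the probiotic samples as run in duplicate, so the spread behind their p-values is that between arrays and may be technical.

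Enterocytes take up dietary iron in steps. Ferric iron is reduced at the apical membrane by CYBRD1, ferrous iron enters through SLC11A2 (DMT1), spare iron is stored in ferritin, and the rest leaves through the basolateral exporter SLC40A1 (ferroportin) after which HEPH (hephaestin) oxidises it for loading on transferrin. Cells also take up transferrin-bound iron through the transferrin receptor TFRC, and STEAP3 reduces the iron released in endosomes. Iron regulatory proteins bind iron response elements in the messenger RNAs of ferritin, ferroportin, TFRC and one form of SLC11A2, and hypoxia-inducible factors act on the promoters of several of these genes.

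The sequences shown are the start of the FTL messenger RNA, for its iron response element, and the promoters of 4 genes that changed. The promoters were searched for a form of the hypoxia motif and for others. They were read from RefSeq, build GRCh38.p14, where 8 of the 9 genes had a promoter window. The start of the FTL messenger RNA holds the loop of an iron response element, searched as CAGTGN on the gene's strand and printed in capitals within 30 bases (chr19:48965329-48965358, plus strand). These letters alone were present in 32.1% of 34796 distinct RefSeq windows of 300 bases. They also occur before the start in the window of TFRC (position -243) and in the other start windows of HEPH.

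FTL: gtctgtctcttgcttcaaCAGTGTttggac

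Promoters are given as the 250 bases before the start of 4 genes that changed in the co-cultures. SLC11A2 (chr12:51028887-51029136, minus strand) and HEPH (chrX:66162421-66162670, plus strand) had the larger falls, TFRC (chr3:196082091-196082340, minus strand) a smaller one, and STEAP3 (chr2:119223584-119223833, plus strand) rose. Capitals mark matches on either strand to ACGTG, the core of the hypoxia response element, which is also part of the MYC E-box CACGTG, and to the GC box GGGCGG.

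SLC11A2: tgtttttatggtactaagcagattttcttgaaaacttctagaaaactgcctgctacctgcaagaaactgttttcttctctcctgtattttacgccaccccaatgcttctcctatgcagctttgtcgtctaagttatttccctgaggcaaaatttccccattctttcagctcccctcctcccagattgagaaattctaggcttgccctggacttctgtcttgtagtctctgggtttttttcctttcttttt
HEPH: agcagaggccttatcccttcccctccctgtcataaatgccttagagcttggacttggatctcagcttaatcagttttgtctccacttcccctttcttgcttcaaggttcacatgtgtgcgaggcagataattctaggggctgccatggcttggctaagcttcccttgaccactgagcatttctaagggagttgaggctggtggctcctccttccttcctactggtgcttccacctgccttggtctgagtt
TFRC: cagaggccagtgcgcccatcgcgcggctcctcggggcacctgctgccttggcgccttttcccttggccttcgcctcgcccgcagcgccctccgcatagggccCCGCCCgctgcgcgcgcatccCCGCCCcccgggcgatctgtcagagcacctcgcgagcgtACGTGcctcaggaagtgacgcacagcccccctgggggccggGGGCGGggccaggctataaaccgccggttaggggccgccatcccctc
STEAP3: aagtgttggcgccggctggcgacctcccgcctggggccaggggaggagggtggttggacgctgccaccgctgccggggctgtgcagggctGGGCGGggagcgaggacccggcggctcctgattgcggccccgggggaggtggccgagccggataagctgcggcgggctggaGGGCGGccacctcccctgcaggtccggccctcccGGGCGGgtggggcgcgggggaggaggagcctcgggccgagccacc

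Windows of 300 bases, which add 50 bases after the start, were searched for 5 promoter motifs. ACGTG was present in 21.4% of 34796 distinct RefSeq windows, and among the genes measured it was found at the gene start of TFRC, with its first base at position -88 from the start, and of FTL, at position -11. GGGCGG was present in 44.9% of all windows, with 3 matches each in TFRC, SLC40A1 and STEAP3, 2 in FTL, and none at the gene start of SLC11A2, HEPH or CYBRD1. CACGTG, the antioxidant response element TGACNNNGC and the AP-1 site TGANTCA were in 7.2%, 13.3% and 7.73% of all windows and at none of these gene starts. The GC share of the window was 43.7% for SLC11A2 and 51.3% for HEPH, against 73.3% for TFRC and 78.7% for STEAP3. SLC11A2, HEPH and CYBRD1 also have other start windows in RefSeq, 3, 2 and 1 respectively. Of those of SLC11A2, 1 with a GC share of 72.7% holds 2 GGGCGG matches, and another holds 1 AP-1 match. The other window of CYBRD1, with a GC share of 67.7%, holds 1 GGGCGG match. Those of HEPH hold none of the 5 motifs. A match describes letters in a window and not a bound site.

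Signal was measured on Affymetrix whole-genome expression arrays and is given as log2 values, on which a difference of 1 is a 2-fold change. Median log2 signal lay between 2.66 and 2.72 in the 20 arrays, and arrays of a group correlated at 0.994 to 0.997 across probe sets over 13 pairs. All 13 enterocyte markers, among them VIL1, SI and FABP1, had means over the 20 arrays above the floor. The floor is the 40th percentile of the gene means, here taken over the 20 arrays (2.74 in the probiotic set alone). Of 6 goblet and enteroendocrine markers measured, 3 were above it (TFF3, SPDEF and CHGB, but not MUC2), as were 3 of 9 fibroblast, leukocyte and erythroid markers (COL1A1, COL3A1 and LUM). The 3'-to-5' difference of the beta-actin control probe sets, which rises as RNA is degraded or less fully copied, ran from 0.80 to 0.88 with 8 h medium, 1.08 to 1.54 in the co-cultures, 1.02 to 1.11 with the probiotic supernatants, 1.90 to 2.17 with 24 h medium and 2.12 to 2.22 with E. coli supernatant.

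With live bacteria of each of the 3 strains, the genes for apical iron entry, for basolateral iron oxidation and for the transferrin receptor fell, and STEAP3 and FTL rose. SLC11A2, the apical iron importer, fell 3.46-, 3.02- and 3.40-fold with NCFM, B. lactis 420 and Ls-33. HEPH fell 1.71-, 1.71- and 1.70-fold, TFRC fell 1.36-, 1.26- and 1.29-fold, and STEAP3 rose 2.43-, 2.05- and 1.63-fold. FTL, the ferritin light chain, rose by less than 1.2-fold, and the exporter SLC40A1 rose with NCFM and Ls-33. Each call is from limma at a Benjamini-Hochberg adjusted p under 0.05 across 11865 genes.

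With NCFM, 3 of the 7 genes were called higher and 3 lower, where 16.8% of all genes tested were called higher and 18.4% lower. With B. lactis 420 the counts were 2 and 3, against 18.3% and 16.9% of all genes, and with Ls-33 they were 3 and 3, against 19.4% and 19.3%. The median size of change over the 7 genes, whatever its sign, was 0.44, 0.34 and 0.36 on the log2 scale, and over all genes tested it was 0.24, 0.24 and 0.25.

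**Figure D1:**
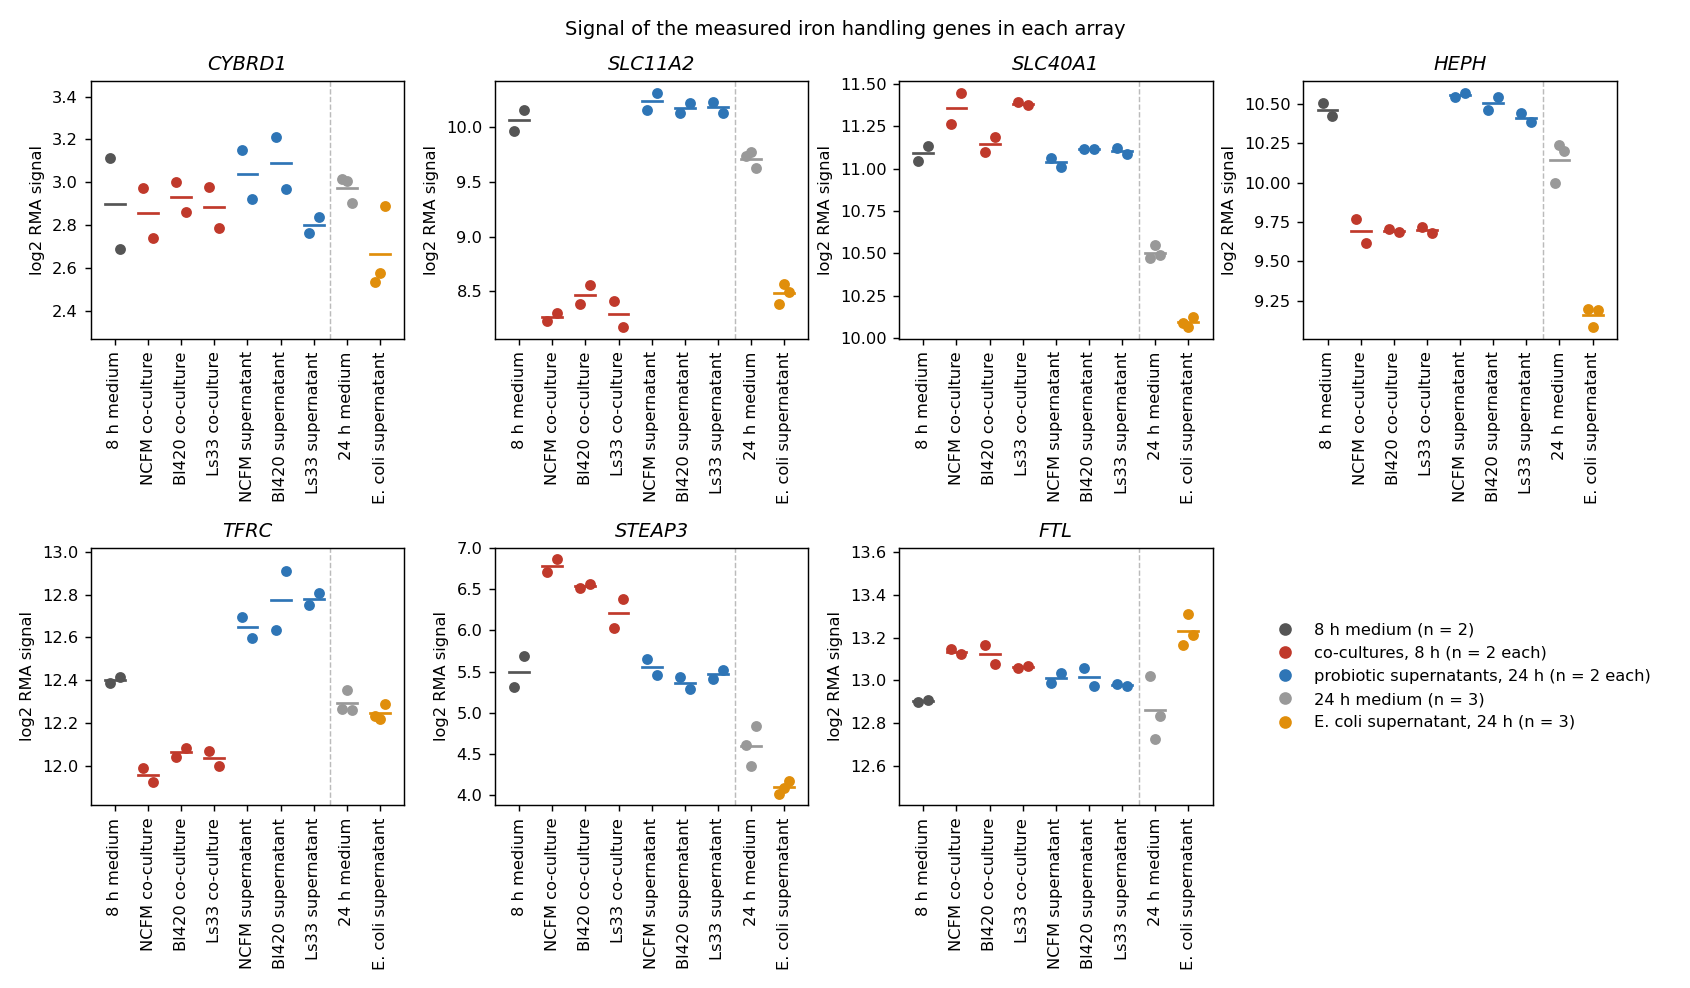
Log2 RMA signal of the 7 measured genes (1 representative probe set each) in every array, by group; points are arrays, bars are group means, and the dashed line separates the probiotic set (left) from the E. coli set (right). SLC11A2 lies at 8.18 to 8.56 in the 6 co-culture arrays and at 9.97 to 10.31 in the 8 other arrays of its set; scales differ between panels.

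On the uptake side, SLC11A2 signal was 9.97 and 10.15 in the 2 arrays of 8 h medium. It was 8.23 and 8.30 with live NCFM, 8.38 and 8.56 with live B. lactis 420, and 8.42 and 8.18 with live Ls-33. Every co-culture array was lower than either medium array, and the Ls-33 arrays overlapped those of both other strains. The log2 change was -1.79 ± 0.092 (SE, n = 2 arrays per group; adjusted p = 1.49e-11 by limma) with NCFM, -1.59 ± 0.092 (adjusted p = 7.59e-11 by limma) with B. lactis 420 and -1.76 ± 0.092 (adjusted p = 1.3e-11 by limma) with Ls-33. CYBRD1, the duodenal ferric reductase, had signals from 2.69 to 3.11 in medium and from 2.74 to 3.00 in the co-cultures. These groups overlapped, the changes were -0.04, 0.03 and -0.02 (adjusted p = 0.873 to 0.945 by limma), and at this level near the floor a change of the transcript could be missed.

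On the export side, HEPH, a membrane-bound copper ferroxidase, gave 10.51 and 10.42 in medium. Its signal was 9.77 and 9.62 with live NCFM, 9.71 and 9.68 with B. lactis 420, and 9.72 and 9.68 with Ls-33. Every co-culture array was lower than either medium array, with changes of -0.77 ± 0.064 for each strain (SE; adjusted p = 1.62e-08, 1.55e-08 and 1.24e-08 by limma).

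SLC40A1, the only known exporter of cellular iron, gave 11.05 and 11.13 in medium, 11.26 and 11.45 with NCFM, and 11.39 and 11.37 with Ls-33. The NCFM and Ls-33 arrays lay above medium, with changes of 0.27 ± 0.058 and 0.29 ± 0.058 (SE; adjusted p = 0.00141 and 0.000505 by limma). With B. lactis 420 the signals of 11.10 and 11.19 overlapped those of medium, and the change of 0.05 (95% interval -0.07 to 0.17; adjusted p = 0.519 by limma) was not called.

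On the transferrin route, TFRC gave 12.39 and 12.41 in medium, 11.99 and 11.93 with NCFM, 12.05 and 12.09 with B. lactis 420, and 12.07 and 12.00 with Ls-33. All 6 co-culture arrays lay below medium. The changes were -0.44, -0.34 and -0.36 (SE 0.062 each; adjusted p = 1.59e-05, 0.000293 and 0.000112 by limma).

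STEAP3, the endosomal ferrireductase, moved the other way. Its signal was 5.32 and 5.69 in medium, 6.71 and 6.86 with NCFM, 6.52 and 6.56 with B. lactis 420, and 6.03 and 6.38 with Ls-33. All 6 co-culture arrays lay above both medium arrays, and the 3 strains did not overlap one another. The changes were 1.28, 1.04 and 0.70 (SE 0.17 each; adjusted p = 7.41e-06, 8.21e-05 and 0.00251 by limma). The Ls-33 call was lost without the lower medium array (change 0.52, adjusted p = 0.0521 by limma) or without the higher Ls-33 array (0.53, adjusted p = 0.0550 by limma).

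In storage, FTL gave 12.90 and 12.91 in medium, 13.15 and 13.12 with NCFM, 13.16 and 13.08 with B. lactis 420, and 13.06 and 13.07 with Ls-33. The co-culture arrays lay above medium, with changes of 0.23, 0.22 and 0.16 (SE 0.038 each; adjusted p = 0.000102, 0.000182 and 0.00277 by limma). The Ls-33 call was lost without the trend of the fit (adjusted p = 0.104 by limma). Both probe sets of FTL carry the suffix _x_at, which marks probes that can bind transcripts of other sequence, and ferritin pseudogenes cannot be told apart from FTL here.

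The enterocyte markers and the RNA control also differed between the co-cultures and medium. Of 13 enterocyte markers, 8 fell in each co-culture, where 18.4%, 16.9% and 19.3% of all genes were called lower. In turn 1, 2 and 2 rose, where 16.8%, 18.3% and 19.4% of all genes were called higher. The summed log2 signal of the 13 was 107.7 to 111.4 in the co-cultures against 114.6 to 116.5 in medium. The 3'-to-5' difference of beta-actin was also higher in every co-culture array than in medium, as given above. It was higher than in medium in every probiotic supernatant array too, at 1.02 to 1.11 against 0.80 to 0.88. The part of either in the changes of the iron genes was not tested. Since these are bulk RNA samples, fewer differentiated cells and less RNA per cell cannot be told apart.

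**Figure D2:**
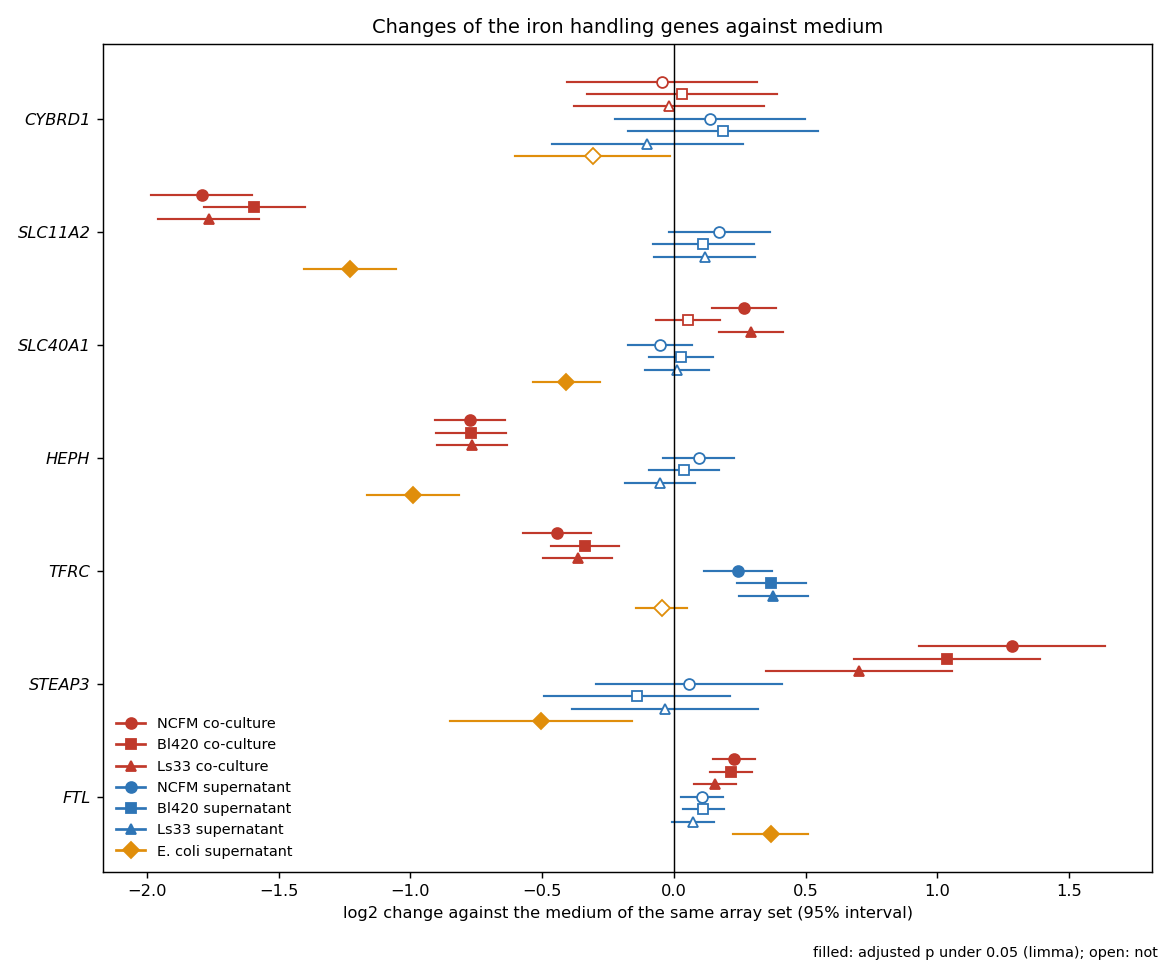
Log2 change of each gene against the medium of its own array set, with the 95% interval of the limma fit; circles, squares and triangles are NCFM, B. lactis 420 and Ls-33, red for live bacteria (8 h) and blue for supernatants (24 h), and orange diamonds are E. coli supernatant. Filled symbols have an adjusted p under 0.05: SLC11A2 and HEPH are lower in the 3 co-cultures and with E. coli, and within the probiotic set TFRC is filled on both sides of 0.

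Cell-free supernatants of the same strains were followed by a called change in 1 of the 7 genes, on the representative probe sets. TFRC rose 1.18-, 1.29- and 1.30-fold with the supernatants of NCFM, B. lactis 420 and Ls-33, the opposite direction to the live bacteria. No gene of the 7 was called lower. The background of calls was 5.28% higher and 5.98% lower for NCFM, 5.98% and 9.20% for B. lactis 420, and 8.48% and 8.14% for Ls-33. Beside this background, 2 of the 13 enterocyte markers were called higher with each supernatant and none lower.

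TFRC signal was 12.70 and 12.60 with NCFM supernatant, 12.64 and 12.91 with B. lactis 420 supernatant, and 12.75 and 12.81 with Ls-33 supernatant. All 6 arrays lay above the 12.39 and 12.41 of medium. The changes were 0.24, 0.37 and 0.38 (SE 0.062 each; adjusted p = 0.0148, 0.000575 and 0.000367 by limma). The NCFM call was lost without either medium array or without the higher NCFM array, with changes of 0.20 to 0.26 (adjusted p = 0.0665 to 0.175 by limma), and without the trend of the fit (adjusted p = 0.15 by limma).

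For the uptake and export genes the intervals bound the joint change of supernatant and duration. They rest on the spread between arrays, which may be technical. SLC11A2 changed by 0.17 (95% interval -0.02 to 0.37), 0.11 (-0.08 to 0.30) and 0.12 (-0.08 to 0.31) with the 3 supernatants, and no call was made (adjusted p = 0.25 to 0.455 by limma). HEPH changed by 0.09, 0.04 and -0.05, with 95% intervals that ran from -0.19 to 0.23. SLC40A1 changed by -0.05, 0.03 and 0.01, with 95% intervals that ran from -0.17 to 0.15, and neither gene was called. STEAP3 changed by 0.06, -0.14 and -0.03, with 95% intervals that ran from -0.49 to 0.41. FTL arrays lay above medium with each supernatant, at 12.97 to 13.06, but the changes of 0.11, 0.11 and 0.07 did not pass (adjusted p = 0.0713, 0.0517 and 0.205 by limma). CYBRD1 was again near the floor, at 2.76 to 3.21.

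Live bacteria and supernatant of the same strain were also compared directly, which tests whether the 2 formats differ although the durations of 8 h and 24 h differ too. SLC11A2 was lower with live bacteria by 1.97, 1.70 and 1.88 on the log2 scale for NCFM, B. lactis 420 and Ls-33, HEPH was lower by 0.87, 0.81 and 0.71, and TFRC was lower by 0.69, 0.71 and 0.74. STEAP3 was higher with live bacteria by 1.23, 1.18 and 0.74, and the Ls-33 call was lost without the second co-culture array (0.56, adjusted p = 0.0509 by limma). SLC40A1 was higher by 0.32 for NCFM and 0.28 for Ls-33, with a difference of 0.03 (adjusted p = 0.765 by limma) for B. lactis 420. FTL was higher by 0.12 and 0.10 for NCFM and B. lactis 420, with a difference of 0.08 (adjusted p = 0.102 by limma) for Ls-33. Both FTL calls were lost without the trend of the fit (adjusted p = 0.207 and 0.274 by limma). For NCFM the call was also lost without the first co-culture array (0.11) or the first supernatant array (0.097). For B. lactis 420 it was lost without the first co-culture array (0.061, adjusted p = 0.343 by limma), without the second supernatant array (0.063, adjusted p = 0.324 by limma) and on the second FTL probe set (0.085, adjusted p = 0.138 by limma).

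Between formats, 3 of the 7 genes were called higher and 3 lower with live NCFM, where 18.6% and 18.3% of all genes were. For B. lactis 420 the counts were 2 and 3, against 22.2% and 15.7%, and for Ls-33 they were 2 and 3, against 16.6% and 16.3%. These comparisons share the co-culture arrays with those against medium. Of the 7 genes, only TFRC was called with the supernatants against medium, although the FTL arrays also lay above medium there.

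Among the 3 live strains, SLC40A1 was the 1 gene of the 7 with a called difference over all strains (F-test by limma, adjusted p = 0.0134), where 13.7% of all genes were called. Its group means were 11.35 for NCFM, 11.14 for B. lactis 420 and 11.38 for Ls-33. Ls-33 exceeded B. lactis 420 by 0.24 ± 0.058 (SE; adjusted p = 0.0208 by limma), where 5.58% of all genes differed in either direction. B. lactis 420 against NCFM, at -0.21 (adjusted p = 0.0530 by limma), did not pass, and neither did any other of the 7 genes in that pair, where 3.03% of all genes did. The Ls-33 call was lost without the first B. lactis 420 array or without either Ls-33 array, with differences of 0.20 to 0.25. Without the trend of the fit it was lost too (adjusted p = 0.156 by limma), as was the call over all strains.

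STEAP3 was lower with live Ls-33 than with live NCFM by 0.58 (SE 0.17; adjusted p = 0.0251 by limma), 1 of 7 genes where 14.7% of all genes were called, although its F-test did not pass (adjusted p = 0.0632 by limma). That call was lost without the higher NCFM array (difference -0.50) or without the lower Ls-33 array (-0.41). For SLC11A2 the largest difference of means between live strains was 0.20, and for HEPH it was 0.0062, with a 95% interval of -0.13 to 0.14 for Ls-33 against NCFM.

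Among the 3 supernatants, none of the 7 genes was called in the F-test (adjusted p = 0.681 to 0.960 by limma), where 0.0337% of all genes were. In the pairs, none was called for Ls-33 against NCFM, Ls-33 against B. lactis 420 or B. lactis 420 against NCFM, where 0.0337%, 0.0169% and 0.0253% of all genes were. Before adjustment, the F-test gave no p under 0.05 for these 7 genes, and the lowest was 0.0783 for TFRC. Whether strains differ more in one format than in the other was tested as an interaction, with none of the 7 called and 4.40% of all genes called. SLC40A1 had the lowest adjusted p there (0.0714 by limma).

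E. coli supernatant was set against its own 24 h medium, in the set with 3 arrays a group. SLC11A2 fell 2.34-fold, HEPH 1.99-fold, SLC40A1 1.33-fold and STEAP3 1.42-fold, and FTL rose 1.29-fold. The falls of SLC11A2 and HEPH and the rise of FTL had the direction seen with live probiotics, and SLC40A1 and STEAP3 had the opposite one; the sets were not tested against each other. In all, 1 of 7 genes was called higher and 4 lower, where 36.3% of all genes were called higher and 27.8% lower.

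SLC11A2 signal was 9.73, 9.77 and 9.63 in 24 h medium and 8.39, 8.57 and 8.50 with E. coli supernatant. The change was -1.23 ± 0.081 (SE, n = 3 arrays per group; adjusted p = 9.5e-08 by limma). HEPH was 10.00, 10.24 and 10.20 in medium and 9.20, 9.08 and 9.19 with supernatant, a change of -0.99 ± 0.080 (adjusted p = 5.26e-07 by limma). Neither gene's groups overlapped.

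SLC40A1 was 10.47, 10.55 and 10.49 in medium and 10.09, 10.07 and 10.13 with supernatant. The groups were apart, with a change of -0.41 ± 0.058 (SE; adjusted p = 6.32e-05 by limma). STEAP3 was 4.61, 4.35 and 4.84 in medium and 4.02, 4.09 and 4.18 with supernatant. All 3 supernatant arrays lay below medium, and the change was -0.50 ± 0.16 (adjusted p = 0.0144 by limma). That call was lost without the third medium array (change -0.38, adjusted p = 0.0665 by limma) or without the first supernatant array (-0.47, adjusted p = 0.0537 by limma).

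FTL was 13.02, 12.73 and 12.83 in medium and 13.16, 13.31 and 13.21 with supernatant. The groups did not overlap, with a change of 0.37 ± 0.065 (SE; adjusted p = 0.000339 by limma). TFRC, the gene that moved with each probiotic treatment, was 12.27, 12.36 and 12.26 in medium and 12.23, 12.22 and 12.29 with supernatant. These values overlapped, and the change of -0.05 had a 95% interval of -0.14 to 0.05. CYBRD1 was 3.02, 3.01 and 2.90 in medium and 2.53, 2.58 and 2.89 with supernatant. Its change of -0.31 (adjusted p = 0.0638 by limma) did not pass, and its supernatant mean of 2.67 was under the floor of 2.78. It was called without the third supernatant array (-0.42, adjusted p = 0.0226 by limma) or without the trend of the fit (adjusted p = 0.0460 by limma).

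In this set 7 of the 11 enterocyte markers tested fell and 3 rose, where 27.8% of all genes were called lower and 36.3% higher. The summed signal of the 13, with those under the floor of this set included, was 103.8 to 104.9 with supernatant against 108.3 to 108.4 in medium. The beta-actin 3'-to-5' ranges of supernatant and medium overlapped, and those of the GAPDH control did not, at 0.25 to 0.34 against 0.12 to 0.22. Their part in the changes was not tested.

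The order of the group means differed between genes. SLC11A2 was highest with NCFM supernatant (10.23), followed by the other supernatants, 8 h medium and 24 h medium, and lowest in the 3 co-cultures with E. coli supernatant (8.48) beside them. Neighbours in that order overlapped except at 8 h against 24 h medium and at 24 h medium against E. coli supernatant. For HEPH the lowest mean was with E. coli supernatant (9.16) and the co-cultures came next (9.69 to 9.70), with a gap between them. STEAP3 ran from 6.78 with live NCFM through 6.54 and 6.21 in the other co-cultures to 4.10 with E. coli supernatant. TFRC was highest with the supernatants (12.65 to 12.78) and lowest with live NCFM (11.96). Levels across the 2 sets also differ in RNA input and possibly in normalization, which cannot be told apart from treatment; the 18S control probe set gave 12.4 to 13.5 on probiotic arrays and 5.78 to 6.56 on E. coli arrays.

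Several genes are read by more than 1 probe set, and these differed in the size of a change more than in its direction. The largest spread was in TFRC. Probe set 237215_s_at fell from 8.90 in 8 h medium to 5.50, 7.10 and 7.20 with live NCFM, B. lactis 420 and Ls-33, changes of -3.39, -1.80 and -1.69 that were called. Probe set 207332_s_at fell by 0.93, 0.67 and 0.73, and the representative 208691_at by 0.44, 0.34 and 0.36. The same 3 probe sets rose with the supernatants, by 0.62, 0.77 and 0.84 on 237215_s_at and by 0.43, 0.36 and 0.45 on 207332_s_at.

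On 237215_s_at and 207332_s_at the live strains differed in TFRC, which the representative did not show. Ls-33 exceeded NCFM by 1.70 and 0.20, and B. lactis 420 exceeded NCFM by 1.59 and 0.26, each called by limma across all probe sets. The signal of 237215_s_at was 4.85 in 24 h medium against 8.90 in 8 h medium, a gap that the representative did not have (12.29 against 12.40). These media belong to different array sets with different RNA input. Within the probiotic set, 237215_s_at was at 9.51, 9.67 and 9.74 with the 24 h supernatants of NCFM, B. lactis 420 and Ls-33. The beta-actin 3'-to-5' difference was also higher in 24 h medium, and was highest among the co-cultures in the second NCFM array (1.54); its part was not tested. The weak probe set 240686_x_at (3.13 to 3.75 by group) was not called in any co-culture and was lower by 0.62 with Ls-33 supernatant (adjusted p = 0.0446 by limma), against the rise on the others. Probe set 237214_at was under the floor.

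**Figure D3:**
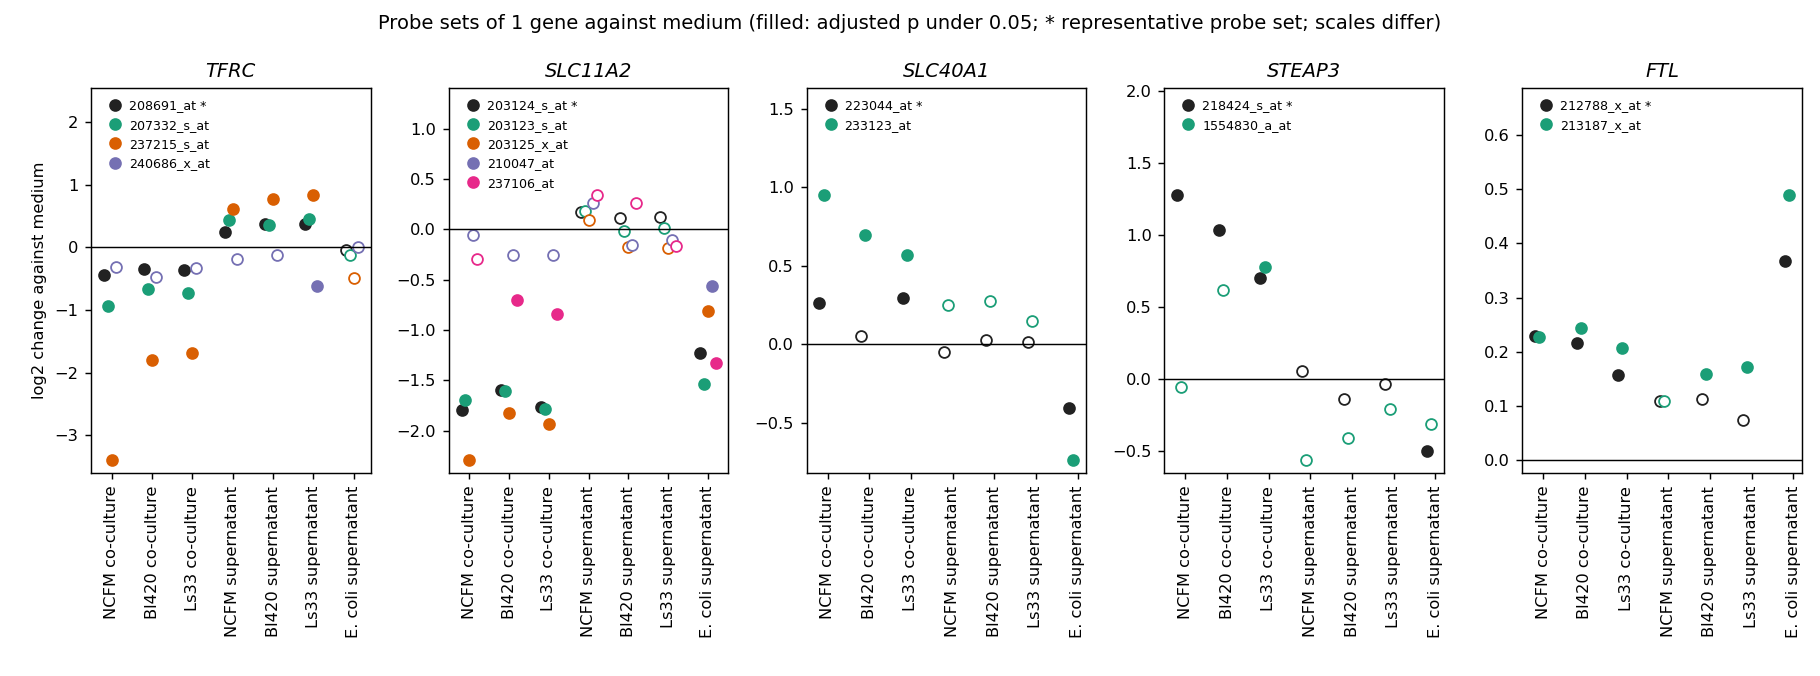
Log2 change against medium of every tested probe set of TFRC, SLC11A2, SLC40A1, STEAP3 and FTL, by comparison; filled symbols have an adjusted p under 0.05 across all probe sets, and the asterisk marks the probe set used for the gene. In TFRC, 237215_s_at falls by 3.39 with live NCFM where the representative falls by 0.44; in SLC11A2 the 3 brighter probe sets move together.

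For SLC11A2, 203123_s_at fell by 1.70, 1.61 and 1.79 in the co-cultures and 203125_x_at changed by -2.29, -1.82 and -1.93, close to or beyond the representative 203124_s_at. The dimmer 237106_at was called with B. lactis 420 (-0.71) and Ls-33 (-0.84) and not with NCFM (-0.29, adjusted p = 0.377 by limma), and 210047_at was not called with any live strain. With E. coli supernatant all 5 probe sets fell, by 0.56 to 1.54.

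For SLC40A1, the second probe set 233123_at rose in all 3 co-cultures, by 0.95, 0.69 and 0.57, including B. lactis 420, and fell by 0.74 with E. coli supernatant. On it Ls-33 was not above B. lactis 420 (-0.13, adjusted p = 0.810 by limma), so the call of a strain difference was made on the representative and not on this probe set. For STEAP3, 1554830_a_at rose with Ls-33 (0.78, adjusted p = 0.0338 by limma), did not pass with B. lactis 420 (0.62, adjusted p = 0.0931 by limma) and was at -0.058 with NCFM (adjusted p = 0.899 by limma). On that probe set Ls-33 was above NCFM by 0.84, the reverse of the representative, so the order of strains in STEAP3 depends on the probe set. For FTL, 213187_x_at rose by 0.23, 0.24 and 0.21 in the co-cultures and by 0.49 with E. coli supernatant. It also rose with the supernatants of B. lactis 420 (0.16) and Ls-33 (0.17). The second probe sets of CYBRD1 and HEPH had group means of at most 2.69, with single arrays up to 3.08. That of CYBRD1, and that of HEPH in the probiotic set, were under the floor of the probe-set fits (2.48 and 2.46) and were not tested. With E. coli supernatant that of HEPH was tested and not called (-0.38, adjusted p = 0.108 by limma).

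Other genes of iron metabolism were taken from 5 lists with 67 genes. A named probe set was available for 61, and 54 were tested in the probiotic set. The background for the counts of each list is the share of all genes called higher and lower, given above for each comparison. In the transferrin and hepcidin axis, TF, HFE and NEO1 led the changes. TF, the plasma carrier transferrin, fell by 2.16, 2.81 and 2.97 on the log2 scale in the co-cultures. It fell by 1.34, 0.92 and 1.62 with the supernatants and fell by 3.22 with E. coli supernatant. Its mean was 5.48 in 8 h medium and 10.84 in 24 h medium, which belong to different array sets with different RNA input. In the 24 h supernatants of the probiotic set its means were 4.14, 4.56 and 3.86. TF ended under the floor with live B. lactis 420 and Ls-33, where the size of the fall is only a lower guide. HFE, which associates with transferrin receptors, fell by 1.13, 1.01 and 1.07 in the co-cultures, by 0.80 with Ls-33 supernatant and by 1.36 with E. coli supernatant. NEO1, a co-receptor in hepcidin control, fell with live B. lactis 420 and Ls-33 (0.53 and 0.45) and with each supernatant (0.67, 0.94 and 0.73), and its change with live NCFM was -0.32 (adjusted p = 0.141 by limma). HAMP, which encodes hepcidin, was called with live NCFM (-0.77), where its mean of 2.66 was under the floor. It was at -0.35 and -0.25 with live B. lactis 420 and Ls-33, at -0.0070, 0.35 and -0.22 with the supernatants and at -0.33 with E. coli, none of which passed (adjusted p = 0.152 to 0.992 by limma). TFR2, the second transferrin receptor, fell by 0.68 with E. coli supernatant.

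Of the 5 tested genes of this list, 0 rose and 3 fell in each co-culture, 2, 2 and 3 fell with the supernatants, and 3 of 6 fell with E. coli. Of all genes, 16.8%, 18.3% and 19.4% rose and 18.4%, 16.9% and 19.3% fell in the co-cultures. With the supernatants 5.98%, 9.20% and 8.14% of all genes fell, and with E. coli 27.8% did. The list's median change was -0.77, -0.53 and -0.45 in the co-cultures, against -0.01, 0.01 and -0.01 over all genes tested.

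In the list for iron sensing, chaperones and ferritin turnover, 1 of 6 genes rose and 3 fell in each co-culture and with E. coli. None was called with the supernatants. The 16.7% higher and 50% lower stood against 16.8%, 18.3% and 19.4% of all genes higher in the co-cultures and 18.4%, 16.9% and 19.3% lower. With E. coli they stood against 36.3% and 27.8%. The share higher was thus not above the background in any of these comparisons. FBXL5, an iron-sensing part of the ligase that degrades IRP2, rose by 0.38, 0.51 and 0.37 in the co-cultures and by 0.98 with E. coli supernatant. NCOA4, the receptor that sends ferritin for autophagy, fell by 0.37, 0.36 and 0.43, and by 0.25 with E. coli. PCBP1, an iron chaperone, fell by 0.42, 0.28 and 0.20 in the co-cultures, and its relative PCBP2 fell by 0.26 with E. coli. EPAS1, which encodes the hypoxia-inducible factor HIF-2alpha, fell with live NCFM and B. lactis 420 (0.39 and 0.29) and was at -0.12 with Ls-33 (adjusted p = 0.126 by limma) and -0.10 with E. coli (adjusted p = 0.160 by limma).

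**Figure D4:**
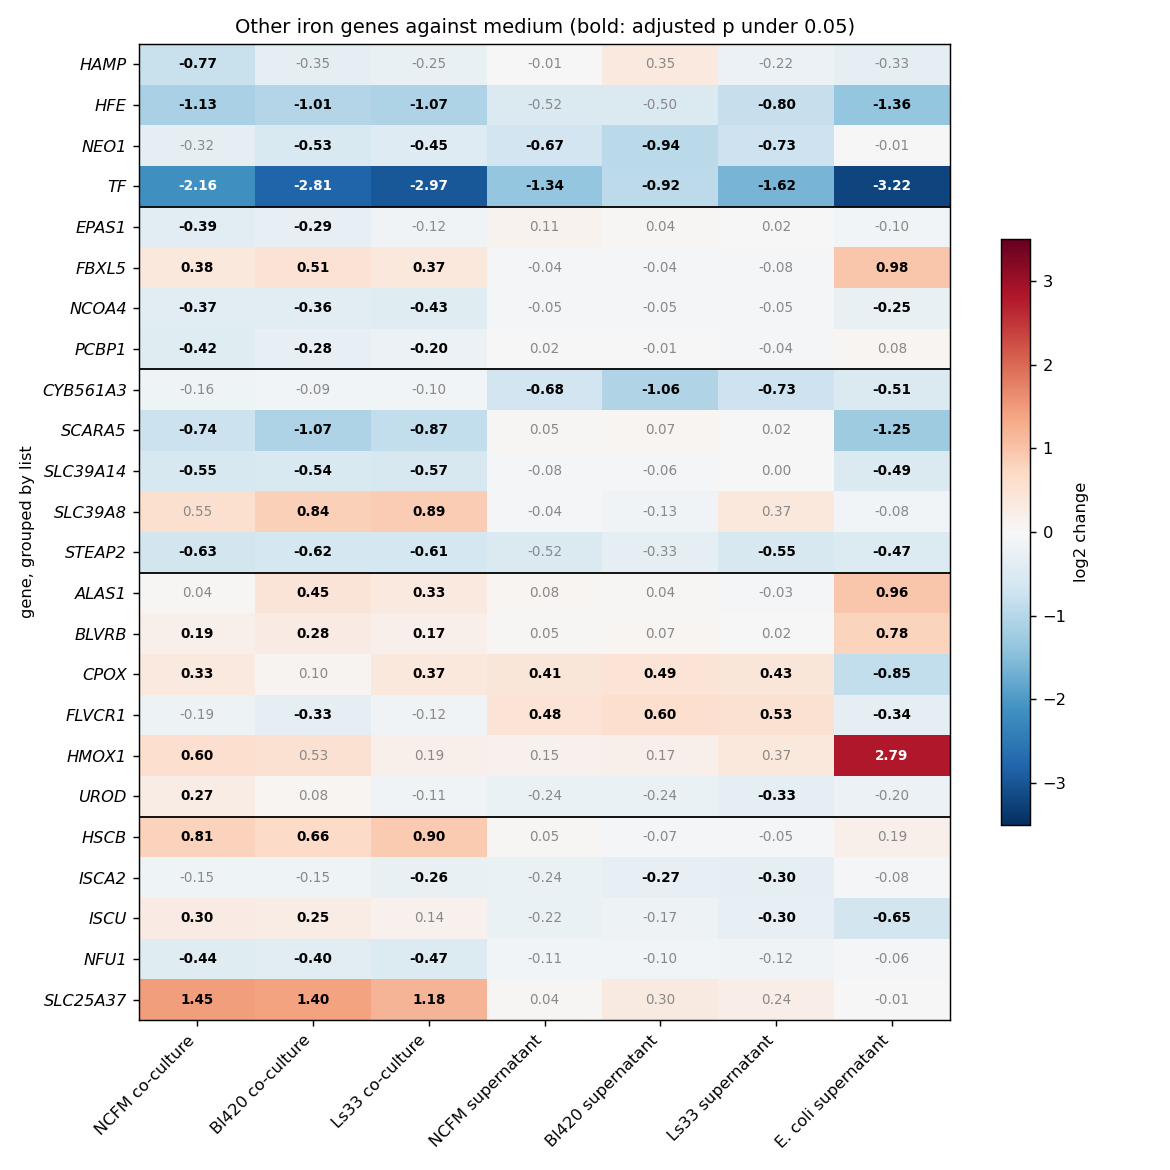
Log2 change against medium of 24 further iron genes (the 4 fixed by name and those named in at least 2 comparisons), grouped by list, with red for higher and blue for lower; bold values have an adjusted p under 0.05. TF is lower in all 7 comparisons, and HMOX1 is at 2.79 with E. coli supernatant and between 0.15 and 0.60 elsewhere.

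Among other reductases, oxidases and carriers, SLC39A14, a zinc transporter that also carries iron, fell by 0.55, 0.54 and 0.57 in the co-cultures and by 0.49 with E. coli. SCARA5, a ferritin receptor, fell by 0.74, 1.07 and 0.87 and by 1.25 with E. coli, and STEAP2, a relative of STEAP3, fell by 0.63, 0.62 and 0.61. SLC39A8, a further metal carrier, rose with live B. lactis 420 (0.84) and Ls-33 (0.89) and was at 0.55 with NCFM (adjusted p = 0.0744 by limma). With the supernatants CYB561A3, a lysosomal ferrireductase, fell by 0.68, 1.06 and 0.73, and STEAP1 fell by 0.26 with that of Ls-33. CP, the plasma ferroxidase ceruloplasmin, fell by 2.06 with E. coli supernatant. Its mean went from 4.84 to 2.78, next to the floor of that set, so the size of the fall is only a lower guide. Of the 9 tested genes in this list, 0, 2 and 1 rose and 3 fell in each co-culture, and 1 rose and 5 fell with E. coli. The rises were 0%, 22.2% and 11.1% of the list in the co-cultures, where 16.8%, 18.3% and 19.4% of all genes rose. The falls were 33.3% in each, where 18.4%, 16.9% and 19.3% of all genes fell. With E. coli the 11.1% higher and 55.6% lower stood against 36.3% and 27.8%.

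In heme metabolism, HMOX1, the stress-induced heme oxygenase that frees iron from heme, rose by 2.79 with E. coli supernatant, from a mean of 5.60 to 8.39. It rose by 0.60 with live NCFM (adjusted p = 0.0430 by limma) and did not pass with B. lactis 420 (0.53, adjusted p = 0.0729 by limma) or Ls-33 (0.19, adjusted p = 0.547 by limma). ALAS1, the first enzyme of heme synthesis, rose with live B. lactis 420 and Ls-33 (0.45 and 0.33) and with E. coli (0.96), and BLVRB, a biliverdin reductase, rose by 0.28 and 0.17 with those strains and by 0.78 with E. coli. FLVCR1, a heme exporter, rose with each probiotic supernatant (0.48, 0.60 and 0.53) and fell with live B. lactis 420 (0.33). CPOX, an enzyme of heme synthesis, rose with each supernatant too (0.41, 0.49 and 0.43) and with live NCFM and Ls-33 (0.33 and 0.37). Of the 14 genes tested, 4, 3 and 3 rose and 1, 1 and 0 fell in the co-cultures, 2 rose with each supernatant with 0, 2 and 2 falling, and 7 rose and 5 fell with E. coli. The rises were 28.6%, 21.4% and 21.4% of the list in the co-cultures, where 16.8%, 18.3% and 19.4% of all genes rose, and with E. coli the 50% higher and 35.7% lower stood against 36.3% and 27.8%.

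In the mitochondrial list, SLC25A37 (mitoferrin 1), which imports iron into mitochondria, rose by 1.45, 1.40 and 1.18 in the co-cultures. HSCB, a co-chaperone of iron-sulfur cluster transfer, rose by 0.81, 0.66 and 0.90, and NFU1, a cluster scaffold, fell by 0.44, 0.40 and 0.47. With E. coli, NFS1, the cysteine desulfurase, fell by 0.88, ISCU, the main cluster scaffold, fell by 0.65, and the chaperone HSPA9 rose by 0.37. With the supernatants, the assembly factor ISCA2 fell by 0.27 and 0.30 with those of B. lactis 420 and Ls-33, and its relative ISCA1 rose by 0.51 with that of Ls-33 (adjusted p = 0.0302 by limma). Of the 20 genes tested, 5, 6 and 4 rose and 2, 1 and 3 fell in the co-cultures, 0, 1 and 1 rose and 0, 1 and 2 fell with the supernatants, and 7 rose and 5 fell with E. coli. With live NCFM these were 25% higher and 10% lower, against 16.8% and 18.4% of all genes. With live B. lactis 420 they were 30% and 5%, against 18.3% and 16.9%. With live Ls-33 they were 20% and 15%, against 19.4% and 19.3%, and with E. coli 35% and 25%, against 36.3% and 27.8%. The counts with Ls-33 and E. coli lay near the background.

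The genes whose signal most resembled 3 of the iron genes were found by Pearson correlation over the 14 arrays of the probiotic set, among all genes tested. The 3 iron genes are those with the widest range of group means. For SLC11A2 they were POU2AF1 (r = 0.997), the fructose transporter SLC2A5 (0.996) and C11orf86 (0.993). For HEPH they were NDNF (0.993), TNFSF10 (0.992) and the lipoprotein assembly gene MTTP (0.992). For STEAP3 they were RABGAP1 (0.979), GTF2H2B (0.968) and SLC25A36 (0.968). The arrays fall into co-cultures and the rest, so that these values describe mainly that contrast, and any gene that differs strongly between the 2 formats scores high.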

How the data were processed

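Affymetrix HG-U133 Plus 2.0 arrays were run on RNA of 20 Caco-2 samples. The deposited values are log2 signals per probe set from RMA, a step the authors ran, per the submitters' processing notes. Neither its version nor a joint normalization of both array sets is stated in the sources used here.

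Symbols came from the platform annotation, updated to RefSeq. A gene was read by its brightest probe set on average, with _x_at sets used only where it had no others. Genes at or above the 40th percentile of gene means, the floor, were tested. The 14 probiotic arrays entered 1 fit and the 6 E. coli arrays another, in limma 3.58.1 (R 4.3.3) with a mean-dependent prior (eBayes trend). Adjusted p-values follow Benjamini and Hochberg, with calls under 0.05. Groups came from the labels, and the fits were tested on simulated data. The number of arrays limits precision.

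Named are all 9 genes and each of their probe sets, TF, HMOX1, HAMP and EPAS1 whatever their values, up to 3 called genes per other iron list and comparison with a medium (lowest adjusted p), and the 3 genes most like SLC11A2, HEPH and STEAP3. Genes and lists were chosen with earlier results of these data known. The closing section gives the alternatives, which changed the filter, the trend, the arrays in the fit, the normalization, the probe sets or a replicate block, or left out an array.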

Additional observations from a re-analysis of the deposited data

Results flagged for a closer look

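These differences were listed because 2 groups under the same contrast differed by a test of the difference itself, and all values are from limma on the log2 scale.

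Among live strains, SLC40A1 differed over the 3 strains (adjusted p = 0.0134), Ls-33 exceeded B. lactis 420 in it by 0.24, and STEAP3 differed by -0.58 for Ls-33 minus NCFM. Without the trend of the fit both SLC40A1 calls were lost (adjusted p = 0.156 by limma for the pair). The pair was at 0.057 with the mean of all probe sets and 0.20 to 0.25 without single arrays, also not called. On 233123_at the pair had the other sign and was not called (-0.13, adjusted p = 0.810 by limma). STEAP3 was at -0.50 or -0.41 without single arrays, not called, and reversed on 1554830_a_at (0.84).

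For co-culture minus supernatant of NCFM, the differences were -0.69 for TFRC, 0.32 for SLC40A1, -1.97 for SLC11A2, -0.87 for HEPH, 0.12 for FTL and 1.23 for STEAP3. For B. lactis 420 they were -0.71 for TFRC, -1.70 for SLC11A2, -0.81 for HEPH, 0.10 for FTL and 1.18 for STEAP3. For Ls-33 they were -0.74 for TFRC, 0.28 for SLC40A1, -1.88 for SLC11A2, -0.71 for HEPH and 0.74 for STEAP3. The FTL differences of NCFM and B. lactis 420 were not called without the trend of the fit (adjusted p = 0.207 and 0.274), nor with either of 2 single arrays left out, where that of B. lactis 420 was 0.061 or 0.063. The STEAP3 difference of Ls-33 was not called without the second co-culture array (0.56, adjusted p = 0.0509). Format and duration (8 h against 24 h) cannot be told apart in these values.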

How the results depend on the processing

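Of 25 calls of the iron genes against a medium, 21 kept direction and call under every alternative other than single probe sets, and 19 of 24 uncalled comparisons stayed uncalled. The replicate numbers of the labels did not pair the samples: 21 correlations of same-numbered deviations in the probiotic set ran from -0.10 to 0.06 and 3 in the E. coli set from -0.14 to 0.03. With the replicate block the counts of called genes were 6, 5 and 6 in the co-cultures, 1 with each supernatant and 5 with E. coli, so no count moved.

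The 4 calls against a medium that were lost are TFRC with NCFM supernatant, FTL (without the trend) and STEAP3 (with arrays left out) with live Ls-33, and STEAP3 with E. coli (with arrays left out). The 5 gained are FTL with each supernatant, SLC40A1 with live B. lactis 420 (0.37 with the mean of all probe sets) and CYBRD1 with E. coli (without the trend or the third supernatant array). Between formats, calls were lost for FTL with NCFM and B. lactis 420 and for STEAP3 with Ls-33.

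Counts of called genes that moved by over 1.5 times are these, and the causes were not tested. With NCFM supernatant, 1 called gene became 0 without the trend and 2 after joint quantile normalization or with the mean of all probe sets, and 0 to 1 with single arrays left out. With B. lactis 420 supernatant, 1 became 2 with no filter, with the 60th percentile, after joint quantile normalization and with the mean of all probe sets, and 1 to 2 with arrays left out. With Ls-33 supernatant, 1 became 2 after joint quantile normalization and with the mean of all probe sets. The gene gained in these is FTL.

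Between live strains, Ls-33 against NCFM had 0 to 1 calls with arrays left out, Ls-33 against B. lactis 420 had 0 without the trend, 0 with the mean of all probe sets and 0 to 1 with arrays left out, and B. lactis 420 against NCFM had 1 with the 60th percentile, joint quantile normalization or the mean of all probe sets and 0 to 1 with arrays left out. The F-test over live strains had 2 with the 60th percentile or joint quantile normalization, 0 without the trend and 0 to 1 with arrays left out, and the interaction had 0 to 1.

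On 1554830_a_at, STEAP3 was called in the opposite direction for Ls-33 minus NCFM (0.84). On 240686_x_at, TFRC was called in the opposite direction with Ls-33 supernatant (-0.62). Elsewhere the sign of a called change differed without a call. These were STEAP3 with live NCFM on 1554830_a_at (-0.058) and for Ls-33 minus NCFM with the mean of all probe sets (0.13). They were also TFRC on 240686_x_at with the supernatants of NCFM (-0.19) and B. lactis 420 (-0.12) and for Ls-33 co-culture minus supernatant (0.29). The last was SLC40A1 on 233123_at in Ls-33 minus B. lactis 420 (-0.13). CYBRD1 had no value with the 60th percentile or the mean of its probe sets, since it falls under that floor.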
